A study of Mus musculus with 36 samples.

Results

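The 8 genes described here write or read marks on chromatin: 2 acetyltransferases (Crebbp and Ep300), 2 acetyl-lysine readers (Brd2 and Brd3), 2 DNA methyltransferases (Dnmt1 and Dnmt3a) and 2 proteins of the methyl-CpG binding domain family (Mbd1 and Mbd3). Their probes were found by gene symbol in the array table, without regard to case and without any measured value, which gave 23 of 45281 probes and 8 of 30854 symbols. The genes themselves were chosen with earlier results of these data known. Crebbp had 3 probes, Ep300 3, Brd2 5, Brd3 1, Dnmt1 1, Dnmt3a 3, Mbd1 6 and Mbd3 1. Each gene is described by its brightest probe, with the other probes where they differ from it.

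RNA was measured on 36 Illumina MouseWG-6 arrays from the hippocampus (HIP), the nucleus accumbens (NAc) and the medial part of the prefrontal cortex (PFC) of adult male C57BL/6J mice. The mice received 10 daily intraperitoneal injections of vehicle (saline, PEG-400 and DMSO), Cpd-60 at 45 mg/kg, SAHA at 25 mg/kg or CI-994 at 10 mg/kg, and were killed 1 h after the last. Cpd-60 is a benzamide selective for HDAC1 and HDAC2, SAHA inhibits class I and class II histone deacetylases without selectivity, and CI-994 is another benzamide inhibitor. The 6 mice of each treatment gave 3 pools of RNA from 2 mice each, and the 3 regions came from the same mice, so each of the 12 groups held 3 arrays. The vehicle was injected at the volume used for Cpd-60, which was larger than that for SAHA and CI-994. In each region 1 Cpd-60 pool is named for mice 3 and 4 in its title and for mice 1 and 2 in its description. If the description holds, Cpd-60 had fewer independent pools. The doses and compounds differed, so the changes under each drug are given side by side and were not compared with each other.

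Histone acetyltransferases place acetyl groups on lysines of histone tails, deacetylases remove them, and bromodomain proteins bind the acetylated lysines. Crebbp and Ep300 are closely related coactivators, and Brd2 and Brd3 belong to the BET family of readers. Dnmt1 copies DNA methylation at replication, Dnmt3a sets it de novo, Mbd1 binds methylated CpG, and Mbd3 is a subunit of the NuRD complex, which also holds HDAC1 and HDAC2. In the brain this machinery is known for its part in activity-dependent transcription and memory.

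The CG dinucleotide is the substrate of the DNA methyltransferases, and the stretch of 120 bases just upstream of the transcription start is shown for Crebbp, Ep300, Brd3 and Mbd3, the members with calls between regions. Sequences are from RefSeq on build GRCm38.p6, written 5′ to 3′ on the strand of the gene, with every CG in capitals. Crebbp lies on chromosome 16 (chr16:4213405-4213524, minus strand), Ep300 on chromosome 15 (chr15:81586094-81586213, plus strand), Brd3 on chromosome 2 (chr2:27475399-27475518, minus strand) and Mbd3 on chromosome 10 (chr10:80399532-80399651, minus strand).
Crebbp: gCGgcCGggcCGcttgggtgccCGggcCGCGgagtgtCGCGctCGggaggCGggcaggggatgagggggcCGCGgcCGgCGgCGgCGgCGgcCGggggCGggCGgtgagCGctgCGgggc
Ep300: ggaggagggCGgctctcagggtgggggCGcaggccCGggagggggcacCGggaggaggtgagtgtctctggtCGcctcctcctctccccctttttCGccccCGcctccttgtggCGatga
Brd3: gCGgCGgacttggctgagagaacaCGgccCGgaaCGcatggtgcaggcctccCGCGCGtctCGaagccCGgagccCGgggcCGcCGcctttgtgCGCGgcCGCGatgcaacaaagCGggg
Mbd3: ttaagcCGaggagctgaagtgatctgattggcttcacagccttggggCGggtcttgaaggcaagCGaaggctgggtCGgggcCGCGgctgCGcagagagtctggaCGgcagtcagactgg
The Crebbp stretch held 22 CG, the Brd3 stretch 18 and the Ep300 and Mbd3 stretches 8 each, against a median of 3 over 32851 promoters of the same length. At least as many CG were found in 1.34% of all promoters for Crebbp, 4.58% for Brd3 and 30.4% for Ep300 and Mbd3. The promoters not shown held 6 to 13 CG for Brd2, 1 to 12 for Dnmt1 and 6 to 21 for Dnmt3a. A high count was thus not particular to the members with calls between regions. A promoter was matched for 7 of the 8 genes, and Mbd1 is named only. DNA methylation was not measured on these arrays, and the sequences are shown as a description.

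Detection set which members could be followed. The probes of Brd3, Dnmt1 and Mbd3, 1 probe of Ep300, 1 of Mbd1 and 3 of Brd2 had a detection p of at most 0.01 on all 36 arrays. The 2 brighter probes of Crebbp reached this on 33 arrays each. None of the 3 Dnmt3a probes reached it on any array, and its brightest probe lay between 6.40 and 6.73 on the log2 scale of normalized intensity over the 36 arrays. Dnmt3a was therefore at the limit of detection, and its brightest probe passed the weaker filter used for testing only in the HIP. Of the 48 pairs of member probe and region that were tested, 10 passed that filter through 1 group of arrays only, and in 7 of them this was a drug group. The probes do not give levels per transcript, so no gene was ranked against another.

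Median raw intensity ranged from 82.2 to 108.3 over the 36 arrays, arrays of one group correlated at 0.970 to 0.994, and no 2 arrays were identical. SAHA HIP pools 2 and 3 were dim, with a 95th percentile of raw intensity of 438 and 452 against 594 to 850 on the other 10 HIP arrays. Markers of the dissected regions followed the labels: the summed log2 level of 6 striatal genes was 13.87 to 14.02 in the vehicle NAc and 9.90 to 10.54 in the vehicle PFC and HIP. The array of CI-994 pool 2 in the HIP had a summed level of cortical markers of 12.54, against 11.42 to 11.96 on the other HIP arrays. Of 4 markers of dividing cells, in which Dnmt1 is known to act, 0 were detected in the vehicle groups.

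**Figure D1:**
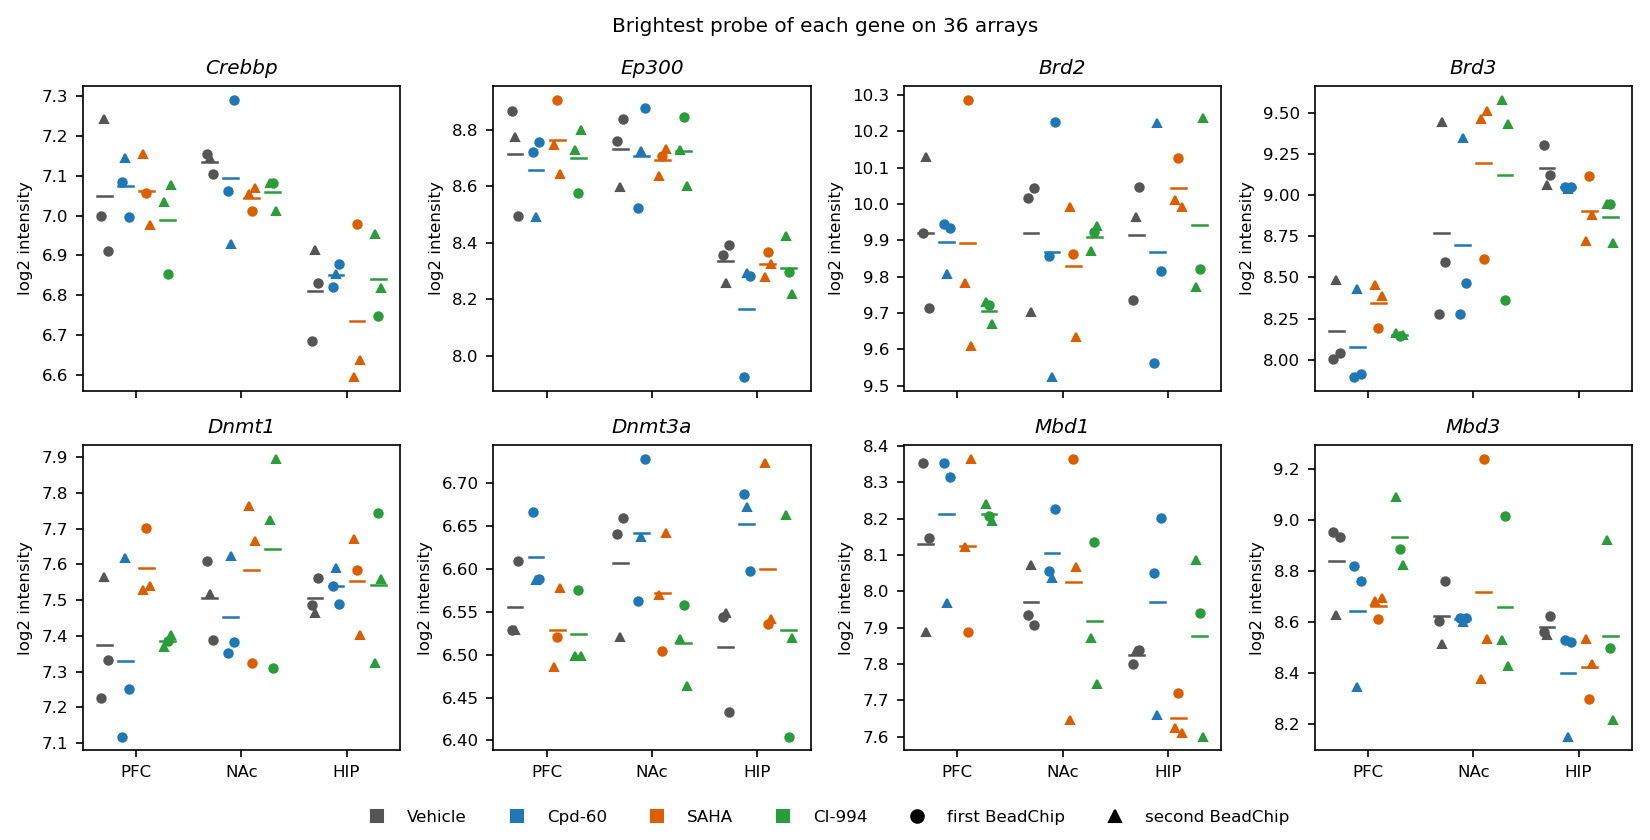
Log2 normalized intensity of the brightest probe of each gene (y axis) on each array, by region and treatment (x axis). Points are arrays of 2 pooled mice, circles and triangles mark the BeadChip of the array, and bars are group means on a scale of each panel's own. Ep300 in the HIP lay at 7.92 to 8.42 under all treatments, below every PFC and NAc array, and Brd3 in the NAc separated by BeadChip.

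Ep300 was lower in the hippocampus of vehicle-treated mice than in both other regions, and its paralogue Crebbp passed in part of its comparisons. Ep300 measured 8.36, 8.39 and 8.26 in the HIP (pools 1, 2 and 3), 8.87, 8.50 and 8.78 in the PFC, and 8.76, 8.84 and 8.60 in the NAc. All 3 HIP pools lay below all pools of both other regions. The difference was -0.38 (SE 0.10, n = 3 pools a region) from the PFC, with an adjusted p of 0.034 by limma, and -0.40 (SE 0.10) from the NAc, with an adjusted p of 0.039. The drug-treated pools did not enter the main regional test and lay on the same BeadChips as the vehicle pools of their region. They also had the HIP lowest: 9 HIP arrays lay between 7.92 and 8.42, 9 PFC arrays between 8.49 and 8.91, and 9 NAc arrays between 8.52 and 8.88. PFC and NAc were neighbours in this order, and their difference was 0.02 (95% interval -0.22 to 0.26).

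Crebbp measured 6.69, 6.83 and 6.91 in the vehicle HIP, 7.00, 6.91 and 7.24 in the PFC, and 7.15, 7.11 and 7.14 in the NAc with its brightest probe. The HIP and NAc pools did not overlap, while the highest HIP pool and the lowest PFC pool met. Against the NAc the difference was -0.32 (SE 0.08, adjusted p = 0.032 by limma), and against the PFC it was -0.24 (SE 0.08), which did not pass (adjusted p = 0.068 by limma). The second Crebbp probe passed in both comparisons, at -0.28 against the NAc and -0.26 against the PFC (adjusted p = 0.045 and 0.046 by limma). The dimmest probe passed in neither. These probes sat close to background, and with the neqc background correction the first probe gave -0.84 against the NAc and -0.63 against the PFC, with adjusted p of 0.015 and 0.036 by limma. The size of the Crebbp difference thus depended on how background was treated.

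Of the acetyl-lysine readers, Brd3 ran the other way. It measured 9.30, 9.12 and 9.06 in the vehicle HIP and 8.003, 8.04 and 8.49 in the vehicle PFC. Every HIP pool was higher than every PFC pool, by 0.99 on the log2 scale (SE 0.22, 1.98-fold, adjusted p = 0.014 by limma). Over all treatments the 12 HIP arrays lay between 8.71 and 9.30 and the 12 PFC arrays between 7.90 and 8.49. The NAc pools, at 8.28, 8.59 and 9.44, spanned both. The NAc therefore had no settled place in the order: it differed from the PFC by 0.59 (SE 0.22, adjusted p = 0.097 by limma) and the HIP differed from it by 0.39 (SE 0.22, adjusted p = 0.27).

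Brd2 was measured by 3 bright probes, and none of them passed the test between regions. Its brightest probe gave 9.74, 10.05 and 9.96 in the vehicle HIP, 9.92, 9.71 and 10.13 in the PFC and 10.02, 10.05 and 9.70 in the NAc. The 3 regions overlapped throughout, and the HIP minus PFC difference was -0.005 with a 95% interval of -0.34 to 0.33. The other bright probes gave -0.28 (SE 0.13) and -0.15 (SE 0.17) for HIP minus PFC, and the 95% intervals of all 3 spanned 0.

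Among the DNA methylation genes, Mbd3 was lower in the HIP than in the PFC of vehicle-treated mice. Its HIP pools measured 8.56, 8.62 and 8.55, its PFC pools 8.95, 8.93 and 8.63, and its NAc pools 8.60, 8.76 and 8.51. The HIP pools lay just below the PFC pools, with a difference of -0.26 (SE 0.08, adjusted p = 0.044 by limma), which was -0.35 between pools on the first BeadChips and -0.08 on the second. In the drug-treated pools the regions overlapped, with 8.15 to 8.92 in the HIP and 8.34 to 9.09 in the PFC.

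Mbd1 measured 8.35, 8.15 and 7.89 in the vehicle PFC and 7.80, 7.84 and 7.83 in the HIP. The pools did not overlap, but the difference of -0.30 (SE 0.11) did not pass (adjusted p = 0.086 by limma). The vehicle pools of Dnmt1 measured 7.49, 7.56 and 7.46 (HIP), 7.23, 7.33 and 7.57 (PFC) and 7.61, 7.39 and 7.52 (NAc). Its regions overlapped, and HIP minus PFC was 0.13 with a 95% interval of -0.10 to 0.36.

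In all, 4 of 16 member probes tested passed an adjusted p of 0.05 for HIP minus PFC (Brd3 up, and Ep300, Mbd3 and the second Crebbp probe down), against 24.3% of all probes tested. For NAc minus PFC 0 of 16 passed, against 19.3%, with an unadjusted p under 0.05 for Brd3 and Mbd3. For HIP minus NAc 3 of 16 passed (Ep300 and both brighter Crebbp probes, all down), against 16.2%. These shares were near or below those of the array as a whole. The median difference of the member probes was -0.14 for HIP minus PFC, 0.01 for NAc minus PFC and -0.06 for HIP minus NAc, beside -0.03, -0.00 and -0.00 over all probes. The count of calls depended on which pool was left out. Without vehicle pool 1, 2 or 3, in that order, 0, 1 and 18 member tests passed in place of 7. The single call without pool 2 was Ep300 for HIP minus PFC. These fits had fewer pools, so a lost call does not show that 1 pool carried a difference. The calls over all probes moved in the same way, to 4204, 2670 and 23178 in place of 13505. Each region was hybridized on 2 BeadChips of its own, so region and BeadChip cannot be told apart, and with the BeadChip as a random block 1 of the 7 calls was left, that of Brd3 for HIP minus PFC (0.94, adjusted p = 0.032 by limma), while 10237 calls were left over all probes. Between pools on the first BeadChips that Brd3 difference was 1.19 and between those on the second 0.58, and the Ep300 difference was -0.31 and -0.52. The random block used a correlation shared by all probes and was not fitted to single probes. The Brd3 probe itself differed by 1.00 (SE 0.07) between the 2 BeadChips of the NAc, beside 0.99 for HIP minus PFC.

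In the same vehicle pools the summed level of 5 oligodendrocyte markers was highest in the HIP, at 14.33 to 14.47, beside 13.59 to 13.98 for the NAc and 12.75 to 13.05 for the PFC. That of 4 neuronal markers, of which 2 were detected, was 13.17 to 13.27, 12.78 to 13.17 and 13.76 to 13.83 in the same order, and that of 5 astrocyte markers 13.26 to 13.33, 12.84 to 13.11 and 13.01 to 13.17. The summed level of 4 choroid plexus markers was 13.40, 13.20 and 11.43 in the HIP pools, beside 9.46 to 9.73 for the NAc and 8.82 to 9.85 for the PFC. The part of cell composition in the regional differences was not tested, and in whole tissue fewer cells of a type and less RNA per cell cannot be told apart.

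**Figure D2:**
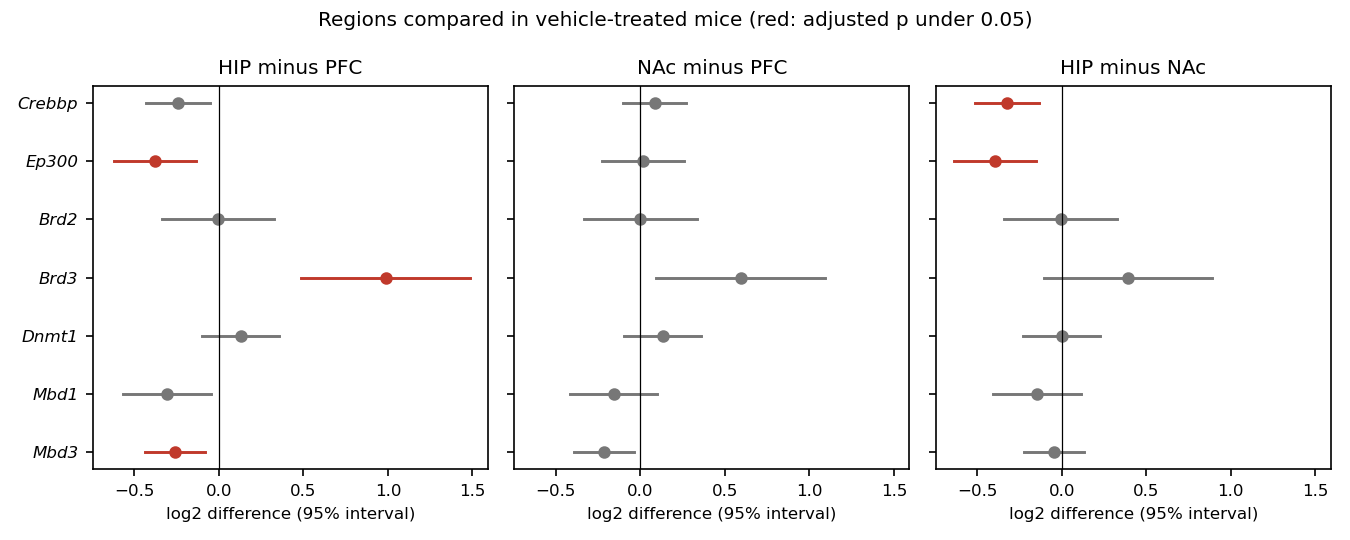
Log2 difference between regions in vehicle-treated mice (x axis) for the brightest probe of 7 genes (y axis), with 95% intervals from limma over 3 pools a region; Dnmt3a was not tested. Red marks an adjusted p under 0.05, which Brd3, Ep300 and Mbd3 reached for HIP minus PFC and Crebbp and Ep300 for HIP minus NAc.

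The study asked what 10 days of deacetylase inhibition do to transcription in these regions, and for the 8 genes no change passed the test. The tests covered 15 member probes for the PFC, 17 for the NAc and 16 for the HIP. Of these, 0 had an adjusted p under 0.05 under any drug in limma, and the same count over all probes was 0 (0% of the array in each of the 9 comparisons). The differences of the brightest probes ranged from -0.30 to 0.42 on the log2 scale. At an unadjusted p under 0.05, 4 of the 144 member tests were reached.

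This share of member tests, 2.78%, stood beside 4.24% of the 206019 tests over all probes. For the PFC, 1 of 15 member probes reached an unadjusted p under 0.05 under Cpd-60, 0 under SAHA and 0 under CI-994, against 5.19%, 2.25% and 3.98% of all probes. The NAc had 0 of 17 under each drug, against 4.77%, 2.05% and 1.99%. The HIP had 0 of 16 under Cpd-60, 2 under SAHA and 1 under CI-994, against 5.26%, 9.37% and 3.24%. Treated pools that did not overlap the vehicle pools were counted as well. The PFC had 0 such member probes under each drug, against 9.68%, 8.68% and 10.7% of all probes under Cpd-60, SAHA and CI-994. The NAc had 0, 2 and 1, against 9.38%, 7.11% and 7.61%, and the HIP 3, 6 and 1, against 12.2%, 19.3% and 9.58%. Of the 6 in the SAHA HIP group, 3 dim probes were higher (of Crebbp, Brd2 and Mbd1) and 3 bright probes lower (of Brd2, Mbd1 and Mbd3). The dim Crebbp and Mbd1 probes met the detection filter in the HIP through the SAHA group only, where they were high, as did 1 of the 2 member probes of the SAHA NAc count, so the filter selected them as high there and they are no support. The median difference of the member probes lay between -0.03 and 0.04 in the 9 comparisons, beside -0.01 and 0.00 over all probes.

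Brd3 in the hippocampus held 2 of the 4 tests. The vehicle pools measured 9.30, 9.12 and 9.06, the Cpd-60 pools 9.05, 9.05 and 9.04, the SAHA pools 9.12, 8.72 and 8.88, and the CI-994 pools 8.95, 8.95 and 8.71. All CI-994 and Cpd-60 pools lay below all vehicle pools, and 1 SAHA pool lay among them. Under CI-994 the difference was -0.30 (SE 0.10, unadjusted p = 0.013, adjusted p = 1.00 by limma), under SAHA -0.26 (SE 0.10, unadjusted p = 0.025, adjusted p = 0.52 by limma) and under Cpd-60 -0.12 (SE 0.10, unadjusted p = 0.27, adjusted p = 0.99 by limma).

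Some of these values rested on few pools. Without the dim SAHA pools 2 and 3 the SAHA difference was -0.05, which left 1 SAHA array with its spread taken from the other groups, and without SAHA pool 2 or 3 alone it was -0.17 or -0.25 (unadjusted p = 0.12 and 0.063 by limma). Leaving out vehicle pool 1 gave -0.19 for SAHA and -0.23 for CI-994 (unadjusted p = 0.11 and 0.063 by limma), and leaving out CI-994 pool 3 gave -0.22 (unadjusted p = 0.063 by limma). Brd3 in CI-994 pool 2, the HIP array with the raised cortical markers, was 8.95, in a group of 8.71 to 8.95. The part of cortical tissue in that value was not tested. Choroid plexus markers (summed log2 level of 4 genes) were 13.40, 13.20 and 11.43 in the vehicle HIP pools, 13.42, 12.36 and 11.48 under SAHA and 13.40, 10.33 and 11.25 under CI-994. Blood markers (3 genes) were 13.03 to 13.26 under vehicle, 12.35 to 13.02 under SAHA and 12.40 to 12.48 under CI-994. In the same order oligodendrocyte markers were 14.33 to 14.47, 14.10 to 14.22 and 14.16 to 14.34. Microglia markers (5 genes) were 10.54 to 10.62, 10.44 to 10.46 and 10.45 to 10.64. Astrocyte markers were 13.26 to 13.33, 13.34 to 13.41 and 13.28 to 13.39. The part of these markers in the Brd3 values was not tested.

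**Figure D3:**
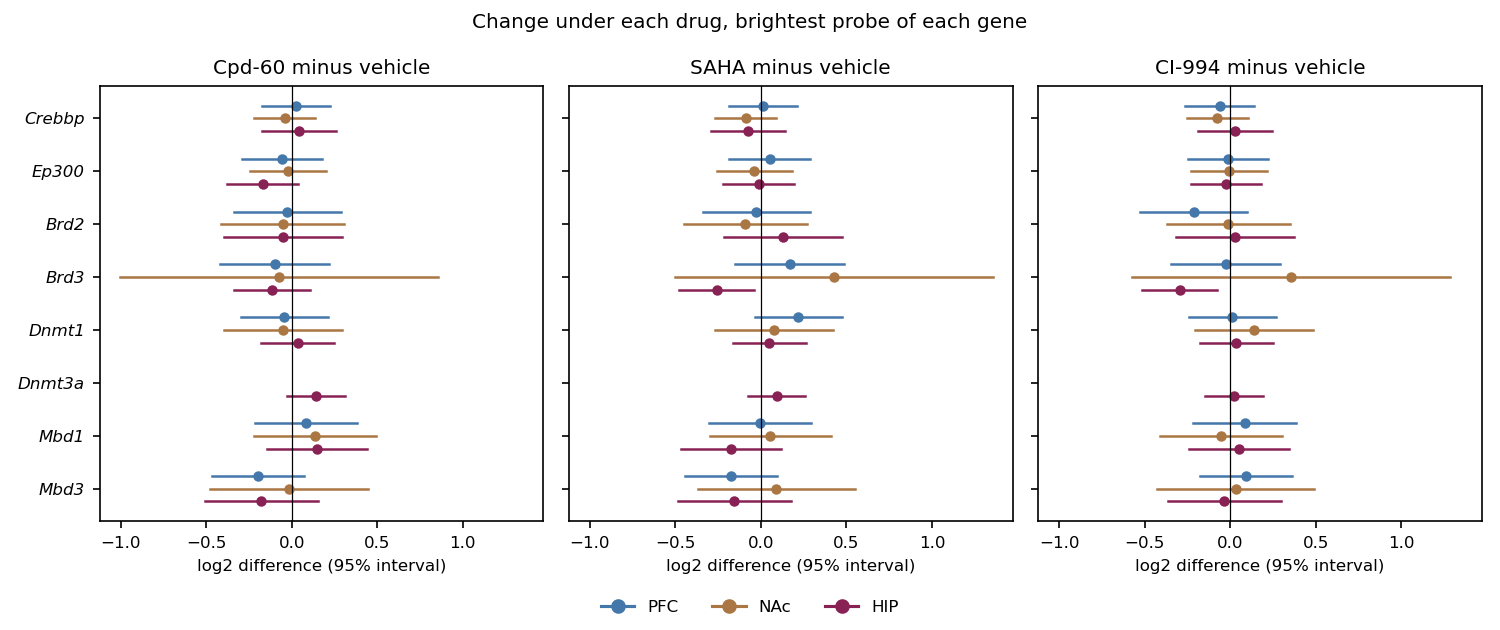
Log2 difference from vehicle (x axis) of the brightest probe of each gene (y axis) under each drug, with 95% intervals from limma over 3 pools a group, by region. The intervals cross 0 except for Brd3 in the HIP under SAHA and CI-994, and the widest are those of Brd3 in the NAc; Dnmt3a was tested in the HIP only.

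Brd3 in the nucleus accumbens followed the BeadChip of the array. Each region lay on 2 BeadChips of 6 arrays, the first with vehicle pools 1 and 2, Cpd-60 pools 1 and 2, SAHA pool 1 and CI-994 pool 1, and the second with the rest. In the NAc the 6 arrays of the first BeadChip measured 8.28 to 8.61 and the 6 of the second 9.34 to 9.58. With treatment in the model the second BeadChip was higher by 1.00 (SE 0.07, adjusted p = 1.9e-06 by limma). In the PFC the same difference was 0.31 (SE 0.07, adjusted p = 0.15 by limma), and in the HIP it was -0.15 (SE 0.06, adjusted p = 0.33 by limma).

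This bore on the drug values, because SAHA and CI-994 each had 2 pools on the second BeadChip and vehicle had 1. Vehicle pools in the NAc measured 8.28, 8.59 and 9.44, SAHA pools 8.61, 9.46 and 9.51, CI-994 pools 8.36, 9.58 and 9.43, and Cpd-60 pools 8.28, 8.46 and 9.34. The groups overlapped fully, and the plain differences were 0.42 for SAHA, 0.35 for CI-994 and -0.08 for Cpd-60, each with an SE of 0.42. With the BeadChip as a block they became 0.09 (SE 0.10), 0.02 (SE 0.10) and -0.08 (SE 0.09). Within the first BeadChip the SAHA and CI-994 differences were 0.18 and -0.07, and within the second 0.04 and 0.06. In the HIP the block left Brd3 at -0.25 under CI-994 and -0.21 under SAHA (unadjusted p = 0.017 and 0.037, adjusted p = 1.00 and 0.62 by limma), and within the first and second BeadChip the differences were -0.27 and -0.23 under CI-994 and -0.10 and -0.26 under SAHA.

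Dnmt1 and Mbd3 also differed between the NAc BeadChips. On the second BeadChip Dnmt1 was higher by 0.29 (SE 0.08, adjusted p = 0.017 by limma) and Mbd3 lower by 0.38 on the log2 scale (difference -0.38, SE 0.10, adjusted p = 0.023 by limma). In all, 3 of 17 member probes passed for the NAc, 0 of 15 for the PFC and 0 of 16 for the HIP, against 22.9%, 0.144% and 1.19% of all probes. Arrays of the 2 BeadChips did not overlap for 2 member probes of the NAc, 0 of the PFC and 1 of the HIP, against 13.5%, 0.835% and 1.82%. In the NAc the members' share was below that of the whole array.

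**Figure D4:**
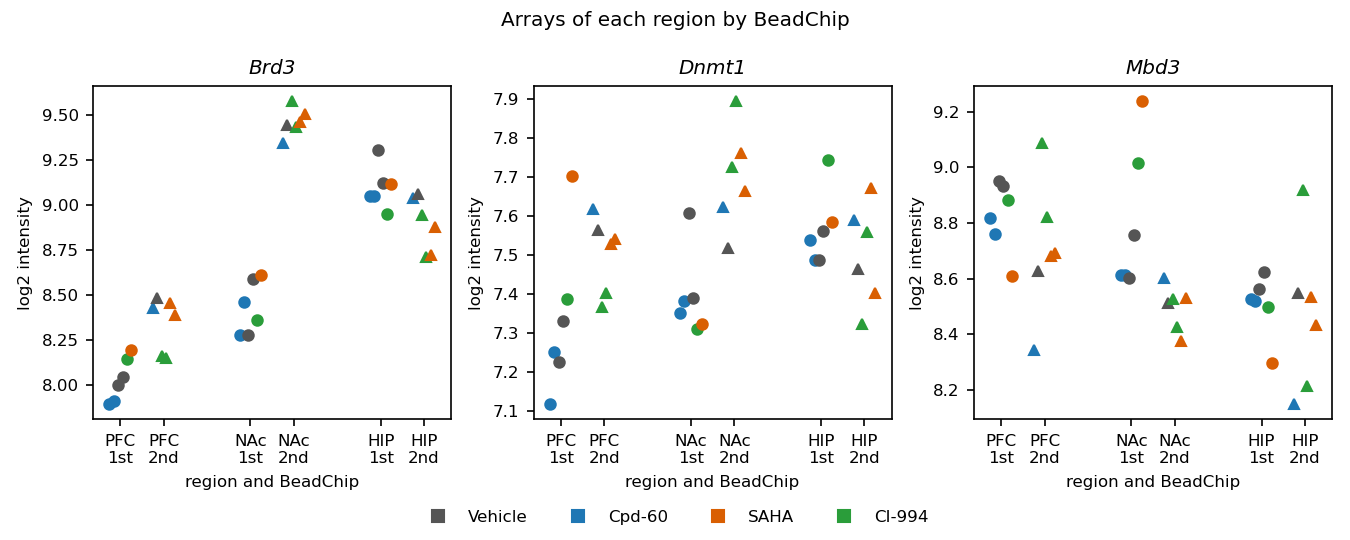
Log2 normalized intensity (y axis) of Brd3, Dnmt1 and Mbd3 on each array by region and BeadChip (x axis), coloured by treatment; points within a BeadChip are spread sideways only to be seen. Brd3 in the NAc lay at 8.28 to 8.61 on the first and 9.34 to 9.58 on the second BeadChip under every treatment.

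The acetyltransferases showed small differences under each drug. For Ep300 the HIP pools measured 7.92, 8.28 and 8.29 under Cpd-60, 8.37, 8.28 and 8.32 under SAHA and 8.30, 8.42 and 8.22 under CI-994, against 8.36, 8.39 and 8.26 under vehicle. Each group overlapped the vehicle pools. The Cpd-60 difference of -0.17 (SE 0.09, unadjusted p = 0.10, adjusted p = 0.99 by limma) was the largest of the 9 for Ep300, and its 95% interval ran from -0.38 to 0.04. Without Cpd-60 pool 1 it was -0.05 (unadjusted p = 0.53 by limma), and without Cpd-60 pool 3 it was -0.23 (unadjusted p = 0.040, adjusted p = 0.49 by limma). For the brightest Crebbp probe the 9 differences ran from -0.09 to 0.04.

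The dimmest Crebbp probe reached an unadjusted p under 0.05 in the SAHA HIP group. In the HIP it met the detection filter on all 3 SAHA arrays but on 1 vehicle, 2 Cpd-60 and 2 CI-994 arrays, so it was testable only through the group in which it was high, and its values are a description. It measured 6.69, 6.67 and 6.72 there against 6.41, 6.54 and 6.62 under vehicle, so that all SAHA pools were higher, by 0.17 (SE 0.06, unadjusted p = 0.017, adjusted p = 0.50 by limma). None of the 12 HIP arrays detected this probe at 0.01 or below. In the same comparison the first of the brighter Crebbp probes gave -0.07 (SE 0.10), with pools of 6.98, 6.59 and 6.64. The second gave -0.008 (SE 0.06), and neither reached an unadjusted p of 0.05 by limma. The dim probe was selected as high and the brighter probes showed no clear difference, so a shared direction could not be judged. The dim probe's value was 0.12 without vehicle pool 1 (unadjusted p = 0.087 by limma).

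The bright probes of Brd2 did not share one either. In the SAHA HIP group its 3 bright probes gave 0.13, -0.18 and -0.33 (SE 0.16, 0.15 and 0.18). The last of them measured 9.27, 9.44 and 9.17 under SAHA and 9.81, 9.58 and 9.47 under vehicle, without overlap (unadjusted p = 0.093, adjusted p = 0.56 by limma). The brightest measured 10.13, 10.01 and 9.99 against 9.74, 10.05 and 9.96, with overlap. In the PFC under CI-994 the brightest probe measured 9.72, 9.73 and 9.67 against 9.92, 9.71 and 10.13, a difference of -0.21 (SE 0.14).

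Dnmt1 under SAHA in the PFC measured 7.70, 7.53 and 7.54 against 7.23, 7.33 and 7.57 under vehicle. The groups overlapped, and the difference was 0.22 (SE 0.12, unadjusted p = 0.088, adjusted p = 1.00 by limma). Within the first BeadChip it was 0.42 and within the second -0.03. Dnmt3a could be tested in the HIP only, where the Cpd-60 pools at 6.69, 6.60 and 6.67 lay above the vehicle pools at 6.54, 6.43 and 6.55, by 0.14 (SE 0.08, unadjusted p = 0.088, adjusted p = 0.99 by limma). The probe met the detection filter on all 3 Cpd-60 arrays but on 0 vehicle, 1 SAHA and 1 CI-994 array, so it was testable only through the group in which it was high. These values, at the edge of detection, are a description.

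For Mbd1, a dim probe gave the fourth test: in the PFC it measured 6.47, 6.55 and 6.37 under Cpd-60 and 6.61, 6.53 and 6.68 under vehicle. In the PFC this probe met the detection filter on 0 Cpd-60, 2 vehicle, 3 SAHA and 3 CI-994 arrays, so neither group compared met it in full. The Cpd-60 and vehicle pools overlapped, and the difference was -0.15 (SE 0.07, unadjusted p = 0.047, adjusted p = 0.96 by limma). It no longer reached an unadjusted p of 0.05 without vehicle pool 1 (-0.14) or 3 (-0.11), without Cpd-60 pool 1 (-0.15) or 3 (-0.10), or, at the same value, without any SAHA pool or CI-994 pool 1. Nor did it with the pool number as a block (-0.15, SE 0.07, unadjusted p = 0.065, adjusted p = 0.96 by limma). Same-numbered Cpd-60 and vehicle pools held different mice and shared a BeadChip. With this block 0 of 15 member probes were left for Cpd-60 in the PFC, against 5.12% of all probes. The bright Mbd1 probe gave 0.08 (SE 0.14) in the same comparison. That bright probe measured 7.72, 7.62 and 7.61 in the HIP under SAHA and 7.80, 7.84 and 7.83 under vehicle, which did not overlap, with a difference of -0.17 (SE 0.13, unadjusted p = 0.22, adjusted p = 0.66 by limma).

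Mbd3 lay below vehicle in the HIP under Cpd-60, at 8.53, 8.52 and 8.15, and under SAHA, at 8.30, 8.53 and 8.43, against vehicle pools at 8.56, 8.62 and 8.55. Neither group overlapped vehicle. The differences of -0.18 and -0.16 (SE 0.15 each) were nonetheless close to their errors (unadjusted p = 0.26 and 0.32, adjusted p = 0.99 and 0.73 by limma). Without Cpd-60 pool 3 the Cpd-60 difference was -0.05 (unadjusted p = 0.74 by limma). The SAHA difference was -0.09 without SAHA pool 1 and -0.28 without the dim SAHA pools 2 and 3. In the NAc, SAHA pool 1 and CI-994 pool 1, both on the first BeadChip, were the highest arrays for this gene, at 9.24 and 9.02.

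Averaging each drug over the 3 regions left 14 member probes, of which 0 reached an unadjusted p under 0.05 under Cpd-60, SAHA or CI-994. The shares over all probes were 10.6%, 3.34% and 4.42%, and at an adjusted p under 0.05 they were 0.571%, 0% and 0.0823%, with 0 member probes. For Ep300 the averaged differences were -0.08, 0.00 and -0.01 (SE 0.06 each), so that 95% intervals lay within -0.21 and 0.13. The effect in the HIP minus the mean effect in the PFC and NAc reached an unadjusted p under 0.05 for 0, 1 and 0 member probes, against 1.7%, 7.25% and 1.68% of all probes, and no probe of the array passed adjustment. The 1 member was the dim Crebbp probe under SAHA. For Brd3 this contrast was -0.56 under SAHA and -0.46 under CI-994 (SE 0.35 each, unadjusted p = 0.12 and 0.20, adjusted p = 0.71 and 1.00 by limma). With the BeadChip as a block these became -0.29 and -0.19 (unadjusted p = 0.026 and 0.13, adjusted p = 0.76 and 1.00 by limma).

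Other genes of the same pathways were described from lists of 69 acetyltransferases, acetyl-lysine readers, DNA methylation enzymes, methyl-CpG readers and NuRD subunits, of which 64 were on the array and 53 to 56 were tested in each comparison. Under the drugs 0 passed an adjusted p of 0.05 in limma in any region. At an unadjusted p under 0.05, under Cpd-60, 1 was higher and 3 were lower for the PFC, 0 and 3 for the NAc, and 4 and 2 for the HIP. In that order these were 7.55%, 5.45% and 10.7% of the listed genes tested, against 5.19%, 4.77% and 5.26% of all probes. The corresponding counts under SAHA were 0 and 0, 0 and 2, and 2 and 3 (0%, 3.64% and 8.93%, against 2.25%, 2.05% and 9.37%), and those under CI-994 were 1 and 1, 0 and 0, and 2 and 0 (3.77%, 0% and 3.57%, against 3.98%, 1.99% and 3.24%). The median differences of the listed genes lay between -0.03 and 0.02, beside -0.01 and 0.00 over all probes. In the vehicle HIP, 1 listed gene was higher and 6 lower than in the PFC at an adjusted p under 0.05 (13% of 54 tested, against 24.3% of all probes), with a median over the tested genes of -0.13 beside -0.03 over all probes.

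Of the listed genes, 2 differed without overlap and at an unadjusted p under 0.05 in more than 1 region under the same drug and in the same direction. They were picked for this pattern, which 152 of 16223 genes tested in at least 2 regions showed under Cpd-60 (0.937%), 13 under SAHA and 53 under CI-994, and their values are a description. Rbbp4, a histone-binding subunit of NuRD, was higher under Cpd-60 by 0.18 (SE 0.07) in the PFC and 0.25 (SE 0.09) in the HIP (unadjusted p = 0.017 in both, adjusted p = 0.92 and 0.91 by limma). Yeats4, a YEATS-domain acetyl-lysine reader, was lower, with differences of -0.24 (SE 0.09) in the PFC and -0.35 (SE 0.10) in the NAc (unadjusted p = 0.018 and 0.0057, adjusted p = 0.92 and 0.94 by limma). Neither gene passed adjustment.

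The genes whose 12 group means followed those of each member most closely were sought among 11330 probes detected on every array. Brd3 was followed by Hsp90b1 and Cfdp1 (Pearson's r = 0.990 and 0.988), Ep300 by Cul7 and Bzrap1 (0.988 and 0.986), and Crebbp by 5730453I16Rik and Nin (0.986 and 0.976). For Mbd1 the nearest were Ppm1a and Eef2 (0.973 and 0.967), for Mbd3 Unc119b and Aldh18a1 (0.951 and 0.939), and for Dnmt3a, near background, Tfdp1 and Cacnb2 (0.944 and 0.920). Dnmt1 and Brd2 had no neighbour above 0.87, with Pyroxd1 and Gnai1 (0.866 and 0.859) and Psmc2 and Ick (0.858 and 0.851). The 12 means share animals and BeadChips, and these correlations are a description.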

How the data were processed

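Total RNA of pooled mice was hybridized to 36 BeadChip arrays. The authors deposited the raw intensity of each probe, on a linear scale and not normalized, together with a detection p-value per probe and array, and these deposited columns were used. For their own analysis the authors used GeneSpring, with quantile normalization, a presence filter and one-way analysis of variance.

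Here the intensities of all 36 arrays were quantile normalized together, floored at 1 and log2 transformed in R 4.3.3 with limma 3.58.1. Testing in a region required a detection p of 0.2 or less on every array of 1 or more of its groups. Each drug was compared with vehicle by limma's linear model with empirical Bayes moderation on the 12 arrays of a region. Regions were compared on the 9 vehicle arrays with the pool as a block, since the 3 regions of a pool share mice. Averages over regions and the HIP contrast used all 36 arrays with the pool as a random block, whose consensus correlation was -0.005. P-values were adjusted by Benjamini-Hochberg over all probes of a comparison, and 95% intervals are from the same fits. Deviations of same-numbered Cpd-60 and vehicle pools from their group means correlated at 0.23 to 0.65 in the PFC and 0.37 to 0.73 in the NAc. The number was used as a block in an alternative. These pools held different mice but lay on the same BeadChip, so a pairing by number and a shared BeadChip cannot be told apart. Other comparisons held pairs below 0.1. With 3 pools a group, precision was limited by their number.

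The members and gene lists were chosen with earlier results of these data known. The brightest probe of a gene led it. For each such probe the 2 most similar genes were named, and of the listed genes those with an unadjusted p under 0.05 and no overlap in at least 2 regions under 1 drug. Alternatives were neqc (offset 16), detection at 0.01 or less, no filter, a block for the BeadChip or for the pool's number, the 27 arrays without CI-994, normalization within a region, the methods' Tukey test, and each pool left out. The BeadChip comparison and the fits without the dim SAHA arrays were chosen after seeing the data. The tests were also run on simulated data with independent noise, no pool or BeadChip effect, and a Cpd-60 change of 1 on the log2 scale. Within the regions 93% to 97% of the changed probes were recovered. That run cannot give the power for smaller differences or for data with BeadChip effects. Probe sequences and positions were not used here.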

Additional observations from a re-analysis of the deposited data

Results flagged for a closer look

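The dimmest probe of Crebbp was picked out because its SAHA effect in the HIP differed from its mean effect in the PFC and NAc by 0.17 (SE 0.08, unadjusted p = 0.048, adjusted p = 0.68 by limma). All 3 SAHA pools lay above the 3 vehicle pools in the HIP, at 6.67 to 6.72 against 6.41 to 6.62, and the groups overlapped in the PFC and NAc. The result failed adjustment, and 7.25% of all probes reached an unadjusted p under 0.05 in this contrast. The probe met the detection filter in the HIP through the SAHA group only, on 3 of 3 arrays against 1 vehicle, 2 Cpd-60 and 2 CI-994 arrays, so it could be tested only because it was high there. Without the dim SAHA HIP pools 2 and 3 the difference was 0.17 with an unadjusted p of 0.13, in a fit that had 1 SAHA array left in the HIP and took its spread from the other groups, and without vehicle pool 1 it was 0.08 (limma).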

How the results depend on the processing

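No member passed adjustment under any drug in any alternative. The count of member tests at an unadjusted p under 0.05 among drug comparisons within a region, 4 in the main analysis, was 2 with neqc, 2 with detection at 0.01 (of 96 tests), 1 by the methods' Tukey test and 2 without the dim SAHA HIP arrays, and 0 to 10 over the pools left out (0 without vehicle pool 1, 10 without vehicle or Cpd-60 pool 3, 7 without Cpd-60 pool 2). The count over all probes, 8740, moved as well, to 9050, 5468, 2755 and 8169 in the same 4 alternatives, and to 7074 without vehicle pool 1, 11870 without vehicle pool 3, 13285 without Cpd-60 pool 3 and 8620 without Cpd-60 pool 2. Over the 3 regions the member count was 0, but 3 without a filter, 1 with the BeadChip as a block, and 0 to 2 over the pools left out. For the HIP contrast it was 1, but 0 with neqc, with detection at 0.01, with the 27 arrays without CI-994 and without the dim arrays, 2 without a filter, and 0 to 3 over the pools left out. For regions the 7 adjusted calls became 1 with the BeadChip as a random block, 4 with all 36 arrays, 5 with neqc and 0 to 18 over the vehicle pools left out. The averaged Brd3 difference under CI-994 went from 0.01 to -0.12 (unadjusted p = 0.047) with the BeadChip as a block. CI-994 had 2 pools on the second BeadChip of each region and vehicle had 1, and the block takes up this imbalance. What lies behind the BeadChip difference was not tested. With the replicate number as a block the drug counts were 4, 0 and 1, as without it, though the Mbd1 test in the PFC was lost and a Brd2 probe (ILMN_3154409) gained under SAHA in the HIP, and no other call of a member changed. Without the pool as a block the regional count was 6. Over all drugs and regions 15 of 27 pairs of same-numbered pools correlated above 0.1. Of 2410 alternative single values, 2164 kept direction and side of the threshold. The 134 values behind them include every brightest probe, called or not, and most passed no threshold in the main analysis. The share is therefore no measure of how well the calls held. A call was lost in 63 alternative values and gained in 24. Direction changed in 158 without a call and in 1 with a call. Depth cannot be given for arrays, and probes near background limit what can be seen. They were those of Dnmt3a, the dimmest of Crebbp and of Brd2, 5 of 6 of Mbd1 and all but the brightest of Ep300.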
